A study of Mus musculus with 9 samples.

Results

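The genes described are 39 mouse genes of the cell cycle and of DNA replication, taken from 40 names by matching the gene name of each non-control spot on the arrays. Of the 40 names, 39 were found; Cdc2a is an older symbol of Cdk1, and the arrays carry that gene only under the older name. The genes were measured by 92 spots of 65 probes. They fall into 9 genes of the G1 phase (cyclins, their kinases and E2f1), 13 replication genes and 17 mitotic genes. After a filter on dim probes, 35 of them were among the 22700 genes tested: all 9 G1 genes, 11 replication genes and 15 mitotic genes. The rule uses gene names and no measured value.

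RNA was measured on 9 single-colour arrays, 3 for each of 3 groups, from cells sorted out of the tibialis anterior, a leg muscle, at an age of 3 months. The iPax7 group and the iPax3 group are myogenic progenitors derived from pluripotent stem cells, named after the transcription factors Pax7 and Pax3, which were injected in vivo and later re-isolated. The labels give their strain as NSG/NSGmdx4cv and their cell type as mononucleated cells. The satellite group holds adult satellite cells, which are the stem cells that reside along muscle fibres, from the strain Pax7-ZsGreen. No genotype or treatment beyond these is labelled, and the sorting gate and the time from injection to re-isolation are not given in the sources used here. Per the labels, the cells of a line came from 3 mice over 3 independent experiments, and the RNA of these small samples was amplified before labelling. The strain, the array slide and the scan day all differed between the re-isolated groups and the satellite cells, so these cannot be told apart from the cell source.

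Cells enter the division cycle when D-type cyclins activate Cdk4 and Cdk6, which phosphorylate the retinoblastoma protein and release E2F transcription factors. E2F then raises genes of cyclin E, the Mcm helicase, nucleotide synthesis and DNA polymerases, and the later genes of mitosis follow under promoters with CCAAT boxes and the cell cycle genes homology region. Resting adult satellite cells are known for being out of the cycle until muscle is injured, whereas activated and proliferating myoblasts carry high levels of these genes. Whether the satellite cells measured here were resting was not tested.

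Sequence shared within a role is shown first, because the genes of one role are known to be driven through common promoter elements. The windows below are the 200 bases before the start of transcription, 5′ to 3′ on the coding strand, from the RefSeq promoter table (build GRCm38.p6). Capitals mark matches on either strand, with those on the opposite strand shown as the reverse complement. The letters searched were CCAAT, the box that the factor NF-Y is known to bind. The cell cycle genes homology region was searched as TTTGAA in the same windows. For sites of the E2F kind the letters TTGGCGC were searched. The closely related TTCGCGC was added to them, and overlapping matches of these E2F-type letters appear as 1 longer run of capitals. Ccnb2 lies at chr9:70421555-70421754 (minus strand), Cdk1 at chr10:69352913-69353112 (minus), Cdc20 at chr4:118437344-118437543 (minus), Mcm5 at chr8:75109309-75109508 (plus) and Mcm6 at chr1:128359706-128359905 (minus).
Ccnb2: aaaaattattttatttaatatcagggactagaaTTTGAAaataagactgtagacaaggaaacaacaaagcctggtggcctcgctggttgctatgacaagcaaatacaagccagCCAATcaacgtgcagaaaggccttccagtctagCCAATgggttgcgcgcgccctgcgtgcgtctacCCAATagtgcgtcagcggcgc
Cdk1: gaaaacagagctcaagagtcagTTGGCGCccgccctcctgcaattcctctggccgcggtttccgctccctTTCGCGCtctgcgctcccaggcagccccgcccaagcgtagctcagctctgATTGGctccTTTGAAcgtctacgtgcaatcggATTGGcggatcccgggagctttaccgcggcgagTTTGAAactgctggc
Cdc20: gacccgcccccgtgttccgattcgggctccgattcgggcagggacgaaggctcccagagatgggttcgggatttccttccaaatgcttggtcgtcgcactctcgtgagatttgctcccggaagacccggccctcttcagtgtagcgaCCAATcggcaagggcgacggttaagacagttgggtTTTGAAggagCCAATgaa
Mcm5: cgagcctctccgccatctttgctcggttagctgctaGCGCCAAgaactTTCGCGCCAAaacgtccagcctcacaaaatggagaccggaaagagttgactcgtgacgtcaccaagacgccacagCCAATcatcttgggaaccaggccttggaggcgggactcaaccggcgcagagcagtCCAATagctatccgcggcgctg
Mcm6: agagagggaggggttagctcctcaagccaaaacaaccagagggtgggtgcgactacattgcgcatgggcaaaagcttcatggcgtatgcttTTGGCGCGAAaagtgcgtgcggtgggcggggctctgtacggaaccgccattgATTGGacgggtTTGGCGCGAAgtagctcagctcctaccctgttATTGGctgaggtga

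The full promoter windows, 250 bases before to 50 after the start, were given for 32 of the 39 genes. Of the 14 mitotic genes with a promoter, 12 held CCAAT and 10 held TTTGAA, and the same 10 held both; over all 27025 genes with a promoter, 41.1% held CCAAT and 20.2% held TTTGAA. Those 10 were Mki67, Top2a, Ccnb2, Cdk1, Cdc20, Plk1, Aurka, Bub1b, Cenpa and Kif11. An E2F-type match, by the letters above or by TTCCCGC, was found in 8 of 12 replication genes, against 9.2% of all genes, and in 3 of 14 mitotic genes. Of the 6 G1 genes with a promoter, 2 held CCAAT, Cdk2 held the E2F-type letters and none held TTTGAA. These are counts of letters, not of bound sites. The promoters of Ccnd1, Ccnd2, Ccne2, Mcm4, Ccna2, Aurkb and Cdc25c are named only.

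**Figure D1:**
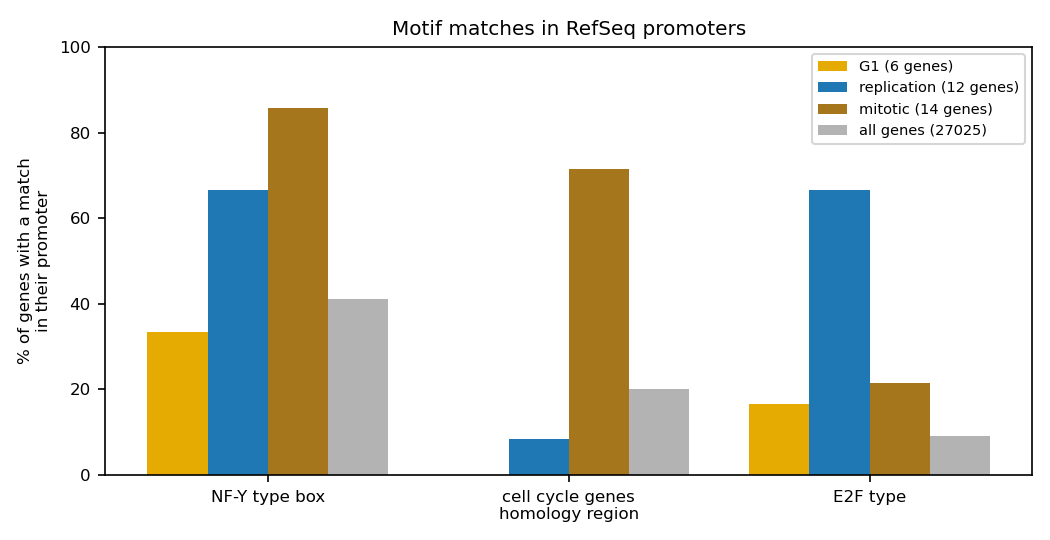
Share of genes with at least 1 match in their promoter window (vertical axis, %), for 3 motif classes, by role and for all genes with a promoter. The bars for CCAAT (NF-Y type box) and the homology region are highest for mitotic genes, at 85.7% and 71.4%, and the E2F-type bar is highest for replication genes, at 66.7%.

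In all the comparisons, no cell cycle or replication gene passed the test. Limma, with Benjamini-Hochberg adjustment over all 22700 genes at a threshold of 0.05, called 0 of the 35 in iPax7 cells against satellite cells, where it called 0.533% of all genes. It called 0 of the 35 in iPax3 cells against satellite cells (background 0.432%) and 0 in both re-isolated groups together against satellite cells (background 1.04%). Between iPax7 and iPax3 cells it called 0 of the 35 and 0% of all genes. At an unadjusted p under 0.05 the counts were 2, 1, 0 and 1 of 35 in that order of comparisons, against 12.4%, 12.4%, 15.4% and 4.1% of all genes tested, so the list held no more such genes than the background. The 2 comparisons of single lines with satellite cells share the satellite arrays. The p-values measure the spread between 3 arrays a group, which the labels call independent experiments.

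The spread between replicate arrays set how much these tests could see. The median 95% interval of a difference reached 2.38 log2 units to either side of the estimate for the 35 genes in each comparison of 2 groups, and 2.06 for both re-isolated groups together. The within-group standard deviation had a median of 1.13 log2 units for G1 genes, 1.99 for replication genes and 1.19 for mitotic genes, against 1.31 for all genes tested. It ran from 0.49 for Cdc20 to 3.38 for Chek1. The missing calls therefore do not show that the groups had equal levels. In bulk RNA, moreover, fewer cycling cells and less of these RNAs in each cell cannot be told apart.

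Arrays differed in how much they detected. The share of spots well above background, the scanner software's own flag, was 57.2%, 68.8% and 73.6% on the iPax7 arrays, 71.6%, 77.6% and 69.7% on the iPax3 arrays, and 79.9%, 57.1% and 60.8% on the satellite arrays. Mean levels of 7 measured satellite cell markers ranged from -0.94 to -0.16 on iPax7 arrays, -1.69 to -0.05 on iPax3 arrays and 2.47 to 3.48 on satellite arrays, and all 7 were well above background on each satellite array. Those of 6 fibro-adipogenic or fibroblast markers ranged from 5.18 to 6.01 on iPax7 arrays, 4.70 to 5.58 on iPax3 arrays and -1.26 to -0.54 on satellite arrays, and no marker of either list was undetected on all arrays of a group. Pax7, which defines satellite cells, was at -3.90, -3.25 and -3.76 on iPax7 arrays, -3.15, -0.53 and -3.52 on iPax3 arrays, and 2.89, 3.53 and -0.66 on satellite arrays. For 4 committed myoblast markers the mean levels ranged from -0.69 to 0.37 on iPax7 arrays, -0.64 to 0.25 on iPax3 arrays and -0.77 to 1.65 on satellite arrays. Single markers departed from these means. Myog, 1 of these 4, was at -3.97, -3.32 and 3.50 on satellite arrays. It was at -1.97, -1.79 and -0.81 on iPax7 arrays, and -1.43, -1.28 and -2.67 on iPax3 arrays. Calcr, a satellite cell marker, was at 3.57, -3.06 and 4.58 on satellite arrays. Vcam1, another, had a lower mean on satellite than on iPax7 arrays, -0.95 against -0.44. The other tested satellite cell markers had their highest mean on satellite arrays. The part of these cell types in the values below was not tested. Slide 1 held the 3 iPax3 arrays and iPax7 replicate 1, slide 2 the other two iPax7 arrays, and each satellite array lay on a slide of its own.

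Most of the list was detected in all 3 cell sources. By the probe that stands for each gene, 25, 32 and 32 of the 39 genes were well above background on the iPax7 arrays, 30, 32 and 29 on the iPax3 arrays, and 34, 27 and 30 on the satellite arrays. The ranges overlap, and the arrays with few detected spots, iPax7 replicate 1 and satellite replicate 2, also had the fewest genes of the list. On all 9 arrays, 22 genes were detected: 7 of 9 G1, 8 of 13 replication and 7 of 17 mitotic genes. That is 62.9% of the 35 tested genes, against 58.7% of all genes tested. Cdc6, Rrm2, Aurkb and Bub1 were detected on fewer than 3 arrays and were not tested; Cdc6 loads the helicase onto origins, Rrm2 is a subunit of ribonucleotide reductase, and Aurkb and Bub1 are mitotic kinases. Aurkb was dim, in this sense, on all 9 arrays.

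**Figure D2:**
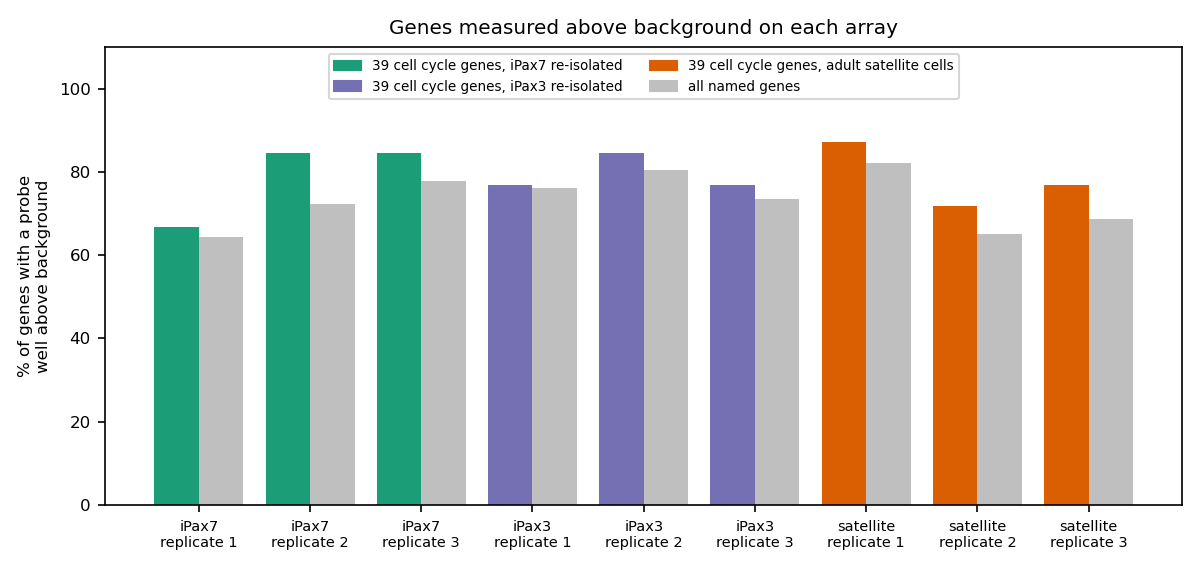
Percentage of genes with at least 1 probe well above background (vertical axis), for the 39 genes (coloured bars) and for all named genes (grey bars), on each of the 9 arrays. Counting any probe, 26 to 33 of the 39 genes were detected on iPax7 arrays, 30 to 33 on iPax3 arrays and 28 to 34 on satellite arrays.

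Among the G1 genes the D-type cyclins were detected on every array. Levels are log2 intensities relative to the 75th percentile of their array, and the same gene is compared across arrays only. Ccnd1, which couples growth factor signals to Cdk4 and Cdk6, was at -0.39, 0.37 and 1.12 in iPax7 cells, -1.0, -0.38 and 0.46 in iPax3 cells, and 2.13, 2.73 and -0.01 in satellite cells. Satellite replicates 1 and 2 lay above all re-isolated arrays, and satellite replicate 3 lay among them. The difference was -1.25 ± 0.89 (standard error, as for all differences) for iPax7 and -1.92 ± 0.89 for iPax3, with limma adjusted p of 0.604 and 0.42.

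Ccnd2, a D-type cyclin, gave different answers by probe. The probe that stands for it was at 1.90, 2.63 and 1.84 in iPax7 cells, 0.77, 1.75 and 0.94 in iPax3 cells, and 1.55, 3.82 and 3.50 in satellite cells. By that probe it was 1.80 ± 0.79 log2 units lower in iPax3 cells than in satellite cells, the only G1 gene with an unadjusted p under 0.05 (0.0476, limma adjusted p = 0.395). All iPax7 arrays lay above all iPax3 arrays.
A second probe, A_52_P514391, was at 3.35, 3.37 and 2.74 in iPax7 cells, 2.33, 1.83 and 1.82 in iPax3 cells, and -0.72, -4.78 and -0.50 in satellite cells. Here every re-isolated array lay above every satellite array, the opposite order. The fit over all kept probes gave a difference of 5.15 ± 1.13 for iPax7 cells (limma adjusted p = 0.123) and of 3.99 ± 1.13 for iPax3 cells (limma adjusted p = 0.215), so neither probe was called. The third probe, A_52_P53906, gave 1.89 ± 1.32 for iPax7 and 2.48 ± 1.32 for iPax3 cells against satellite cells. In mm8 coordinates given by the files, the 3 probes sit on chromosome 6 minus strand, the one that stands for the gene at 127104788 to 127104847, A_52_P514391 at 127095295 to 127095354 and A_52_P53906 at 127114297 to 127114356.

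**Figure D3:**
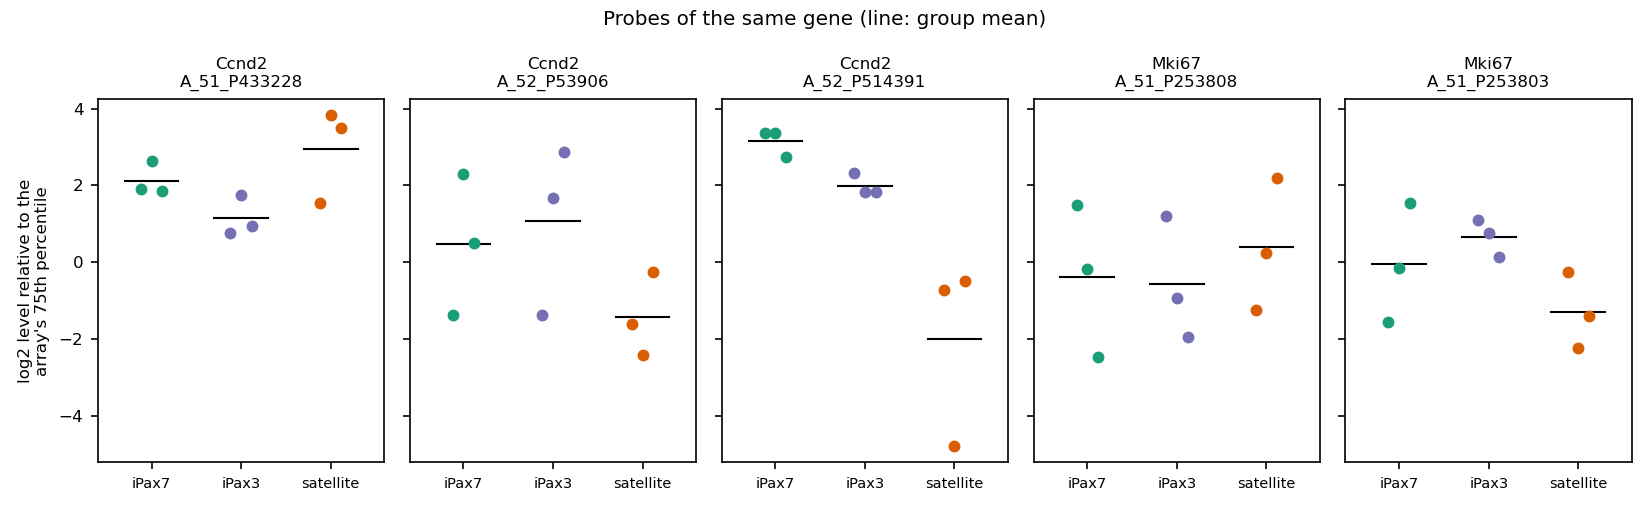
Log2 level relative to the array's 75th percentile (vertical axis) of 3 Ccnd2 probes and 2 Mki67 probes, 1 point per array, with a line at each group mean, for iPax7, iPax3 and satellite arrays. For Ccnd2 the satellite mean is the highest for A_51_P433228, at 2.96, and the lowest for A_52_P514391, at -2.0; for Mki67 it is the highest for A_51_P253808 and the lowest for A_51_P253803.

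Ccnd3, the remaining D-type cyclin, was at 4.04, 3.32 and 3.07 in iPax7 cells, 1.27, 1.76 and 3.55 in iPax3 cells, and 3.39, 4.50 and 1.61 in satellite cells. The 3 groups overlapped. Cdk4, a partner of the D-type cyclins, was at -4.04, 1.17 and 1.41 in iPax7 cells, 0.17, -2.97 and 0.90 in iPax3 cells, and 0.04, -2.05 and 0.55 in satellite cells. Each group held 1 array well below its others, and the estimated differences were 0.00 ± 1.61 for iPax7 and -0.15 ± 1.61 for iPax3. Cdk6, the other such kinase, was at -2.87, -4.07 and -2.97 in iPax7 cells, -2.21, -3.62 and -1.53 in iPax3 cells, and -5.27, -2.94 and -3.57 in satellite cells. Its groups overlapped as well by that probe. By another, A_52_P417489, Cdk6 was at -1.37, -2.12 and -4.74 in iPax3 cells, all well above background, and at -7.81, -5.62 and -5.25 in satellite cells, none of them so. Every iPax3 array was above every satellite array there, at least 5.41-fold in the mean (unadjusted p = 0.0164, limma adjusted p = 0.303 over all kept probes). Groups did not overlap for 19% of all genes in that comparison. The iPax3 array at -4.74 lay below the lowest signal well above background on satellite replicates 2 and 3, -4.14 and -4.66, so its order is uncertain. Cdk2, the partner of the E-type cyclins, was detected on 6 of 9 arrays, and its levels covered -5.31 to -2.12 with overlapping groups.

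The E-type cyclins drive the step into S phase. Ccne1 was at 0.69, -1.07 and -0.79 in iPax7 cells, -0.16, 0.20 and -1.99 in iPax3 cells, and -0.11, 0.74 and 1.38 in satellite cells. Ccne2 was at -2.69, -2.76 and -2.44 in iPax7 cells, 1.63, 0.23 and -3.77 in iPax3 cells, and -2.59, -0.75 and -1.07 in satellite cells. The iPax7 arrays lay within 0.32 log2 units of each other, whereas the iPax3 arrays covered 5.40. E2f1, a transcription factor that the retinoblastoma protein holds in check, was at -4.25, 0.64 and -3.04 in iPax7 cells, 2.32, -0.21 and -4.87 in iPax3 cells, and -0.01, -0.38 and 0.32 in satellite cells. Its re-isolated arrays were scattered on both sides of the 3 satellite arrays. By that probe the differences were -2.19 ± 1.79 for iPax7 and -0.89 ± 1.79 for iPax3 cells against satellite cells. A second E2f1 probe, A_51_P120636, was well above background on all 9 arrays. It gave the opposite sign, 0.36 ± 1.02 for iPax7 and 0.75 ± 1.02 for iPax3 cells.

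The median difference of the 9 G1 genes was -0.83 log2 units in iPax7 cells against satellite cells, where all genes tested had a median of -0.15, and -0.95 in iPax3 cells, where all genes had -0.19. For both re-isolated groups together it was -0.33, against -0.16, with 8 of 9 genes lower, as were 12342 of all 22700 genes. Among the 8, Ccnd2 and E2f1 were higher by other kept probes. When all kept probes of a gene were averaged, the iPax7 median was 0.0016 and the iPax3 median -0.15. Between iPax7 and iPax3 cells the G1 median was 0.26, against 0.07 for all genes.

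The replication genes had the widest spread between arrays of the 3 roles, and none of them was called. Mcm2 to Mcm7 form the ring of the replicative helicase. Mcm5 was at 4.23, -2.53 and -2.30 in iPax7 cells, 3.25, 1.07 and -3.08 in iPax3 cells, and -3.12, -0.71 and -1.55 in satellite cells. The iPax7 arrays differed by up to 6.75 log2 units, which is a 108-fold range, and no group stood apart. Mcm6 was at 1.38, -1.74 and -1.40 in iPax7 cells, -0.33, -0.39 and -1.92 in iPax3 cells, and -0.62, -1.12 and -0.22 in satellite cells, again with iPax7 replicate 1 highest. Mcm3 was at -1.39, -0.84 and -2.97 in iPax7 cells, -2.12, -2.32 and 2.97 in iPax3 cells, and -3.83, -2.22 and -1.31 in satellite cells. One iPax3 array alone was above 0. A second Mcm3 probe, A_51_P324934, was well above background on 2 of 3 iPax7 arrays, 1 of 3 iPax3 arrays and 0 of 3 satellite arrays. Mcm7 was at -0.87, 0.21 and -2.74 in iPax7 cells, -1.03, -1.79 and -2.87 in iPax3 cells, and -2.93, 2.69 and -1.79 in satellite cells, where satellite replicate 2 was the highest array.

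Mcm4 was the helicase gene that separated the re-isolated lines. It was at 0.84, 2.28 and 3.73 in iPax7 cells, 0.45, 0.77 and -0.02 in iPax3 cells, and 2.96, 0.93 and 0.63 in satellite cells. All iPax7 arrays lay above all iPax3 arrays, by 0.07 log2 units at the nearest, and the satellite arrays overlapped both. The difference was 1.88 ± 0.94 (limma adjusted p = 1). Within the slide that held iPax7 replicate 1 and the 3 iPax3 arrays it was 0.44. A second Mcm4 probe, A_52_P231545, gave the opposite sign, -1.02 ± 0.90. By that probe all 6 re-isolated arrays lay above all satellite arrays, where it was not well above background, at least 1.76-fold in the mean (unadjusted p = 0.0183, limma adjusted p = 0.252 over all kept probes), and it was well above background on 4 of the 6. Groups did not overlap for 8.5% of all genes in that comparison. On satellite replicates 2 and 3 the lowest signal well above background was -4.14 and -4.66. Only iPax3 replicate 2, at -2.33, lay above both, so the order of the other arrays is uncertain. The 1.76-fold value takes in re-isolated arrays that were not well above background, so it is not a strict bound.

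Pcna, the sliding clamp of the DNA polymerases, was at -0.97, 0.63 and 1.29 in iPax7 cells, 0.11, -0.87 and 1.97 in iPax3 cells, and 2.16, -0.88 and 2.44 in satellite cells. Its groups overlapped, with differences of -0.92 ± 1.15 for iPax7 and -0.83 ± 1.15 for iPax3. Cdt1, which loads the helicase, was at -3.26, -3.43 and -3.00 in iPax7 cells, -3.30, -3.19 and -3.59 in iPax3 cells, and -5.38, -2.82 and -0.27 in satellite cells. The 6 re-isolated arrays lay within 0.59 log2 units and the satellite arrays across 5.11, on both sides of them.

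Tyms, which makes thymidylate, was at -2.20, -1.47 and -1.72 in iPax7 cells, -1.03, -0.21 and -2.37 in iPax3 cells, and -0.60, -0.78 and -0.32 in satellite cells. Every iPax7 array lay below every satellite array, and the iPax3 arrays spanned both. The iPax7 difference was -1.23 ± 0.73 (limma adjusted p = 0.528), and groups did not overlap for 16.5% of all genes in that comparison. This rests on 1 of 3 probes. The other two overlap each other by 40 bases and differ there by A37C, counted from the 5′ end of A_52_P292651, the capital letter in each sequence below. They are shown to mark where these probes share sequence; the rest of each probe differs, so their levels are not the same measurement.
A_52_P292651: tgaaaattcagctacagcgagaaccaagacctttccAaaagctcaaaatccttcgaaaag
A_51_P398366: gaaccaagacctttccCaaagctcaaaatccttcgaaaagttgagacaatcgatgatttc
The first gave -0.04 ± 1.37 for iPax7 cells and 2.24 ± 1.37 for iPax3 cells against satellite cells. The second was well above background on 0 of 3 iPax7 arrays, 3 of 3 iPax3 arrays and 0 of 3 satellite arrays.

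The remaining tested replication genes, Mcm2, Rrm1 and Chek1, were dim on 2 to 6 of the 9 arrays. Rrm1 is the large subunit of ribonucleotide reductase and Chek1 a checkpoint kinase. Chek1 covered 9.71 log2 units within the iPax7 group, the widest of the 35 genes, and differed by 3.58 ± 2.30 from satellite cells. Leaving out 1 array at a time moved that difference between 1.33, without iPax7 replicate 1, and 6.19, without iPax7 replicate 3, and a second Chek1 probe, A_51_P326502, gave 0.02 ± 1.64. Over the 11 replication genes the median difference was 0.06 in iPax7 cells and -0.45 in iPax3 cells against satellite cells, and 0.13 between iPax7 and iPax3 cells.

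Among the mitotic genes, Ccna2 and Cdk1 had the smallest unadjusted p in iPax7 cells against satellite cells. Ccna2, the cyclin of S phase and early mitosis, was at -4.24, -1.37 and -1.55 in iPax7 cells, -5.61, -5.19 and -5.50 in iPax3 cells, and -4.74, -4.81 and -4.04 in satellite cells. It was well above background on 2 of 3 iPax7 arrays, 0 of 3 iPax3 arrays and 2 of 3 satellite arrays. All iPax7 arrays were above all iPax3 arrays, and all iPax3 arrays were below all satellite arrays, while the iPax7 and satellite arrays overlapped. With iPax3 levels set no lower than the lowest signal well above background, Ccna2 was 7.08-fold higher in iPax7 cells than in iPax3 cells (unadjusted p = 0.00617, limma adjusted p = 0.899). On the same basis it was 1.61-fold lower in iPax3 cells than in satellite cells (limma adjusted p = 0.671). These are not strict bounds, because iPax7 replicate 1, at -4.24, and satellite replicate 2, at -4.81, were not well above background either. The order of these arrays against the iPax3 arrays is uncertain. Against satellite cells, iPax7 cells were 2.14 ± 0.86 log2 units higher (unadjusted p = 0.0343, limma adjusted p = 0.368). Groups did not overlap for 19% of all genes between iPax3 and satellite cells and for 9.35% between iPax7 and iPax3 cells. By the probe that stands for each gene, Ccna2 was the only gene of the list without overlap between iPax3 and satellite cells. By another probe, Ccnd2, Cdk6, Mcm4 and Mki67 were each higher in iPax3 cells there, also without overlap. Within the shared slide the iPax7 minus iPax3 value of Ccna2 was 1.19.

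Cdk1, the kinase that starts mitosis, was at -5.67, -6.68 and -5.47 in iPax7 cells, -5.37, -1.88 and -4.78 in iPax3 cells, and 0.11, -4.07 and -4.44 in satellite cells. It was well above background on 0 of 3 iPax7 arrays and on 2 of 3 in each other group. Every iPax7 array was below every iPax3 array, by 0.10 log2 units at the nearest, and below every satellite array. With iPax7 levels set no lower than the lowest signal well above background, Cdk1 was 3.61-fold lower in iPax7 cells than in satellite cells (unadjusted p = 0.0444, limma adjusted p = 0.391). On the same basis it was 1.55-fold lower than in iPax3 cells (limma adjusted p = 1). Neither value is a strict bound, since each other group was well above background on only 2 of 3 arrays. The satellite value rests mainly on the array at 0.11, and the iPax3 value on the array at -1.88. The iPax3 arrays at -5.37 and -4.78 lay below the lowest signal well above background on iPax7 replicates 1 and 2, -4.16 and -4.45, so their order is uncertain. So is the order of satellite replicate 3, at -4.44, against iPax7 replicate 1. Leaving out 1 array at a time moved the iPax7 minus satellite difference between -3.96 and -1.69, the last of these without satellite replicate 1.

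Kif11, a motor that separates the spindle poles, was at -1.35, -2.74 and -0.91 in iPax7 cells, -3.39, -2.83 and -3.71 in iPax3 cells, and -3.58, -1.70 and 0.75 in satellite cells. The iPax7 arrays lay above the iPax3 arrays, at the nearest by 0.09 log2 units, and the satellite arrays spanned both. The difference was 1.64 ± 1.09 (limma adjusted p = 1). Another Kif11 probe, A_52_P646059, was at -5.40, -6.23 and -5.36 in iPax7 cells, where no array was well above background. It was at -4.99, -4.71 and -5.25 in iPax3 cells, where all 3 were. These iPax3 levels lay below the lowest signal well above background on iPax7 replicates 1 and 2, -4.16 and -4.45. That probe therefore cannot order the lines, and its difference was -0.68 ± 1.43.
In this comparison of the re-isolated lines 5 of the 35 genes had groups that did not overlap, against 9.35% of all genes. By the probe that stands for each gene, Ccnd2, Mcm4, Ccna2 and Kif11 were higher and Cdk1 lower in iPax7 cells. Within slide 1 the differences were 0.74 for Ccnd2, 1.96 for Kif11 and -1.66 for Cdk1, from 1 iPax7 array against 3 iPax3 arrays. Where groups do not overlap, the sign of such a difference is fixed in advance. These values, and those of Mcm4 and Ccna2, therefore do not test the part of the slide. For both re-isolated groups together against satellite cells, 0 of 35 genes and 8.5% of all genes did not overlap by the probe that stands for each.

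Mki67, the standard marker of proliferating cells, was at 1.48, -0.18 and -2.47 in iPax7 cells, 1.21, -0.94 and -1.95 in iPax3 cells, and -1.24, 0.24 and 2.19 in satellite cells. Its groups overlapped, with differences of -0.79 ± 1.31 for iPax7 and -0.96 ± 1.31 for iPax3. By a second probe, A_51_P253803, it was at -1.55, -0.15 and 1.54 in iPax7 cells, 1.11, 0.76 and 0.14 in iPax3 cells, and -0.25, -2.23 and -1.39 in satellite cells. That probe gave differences of the opposite sign, 1.24 ± 0.96 for iPax7 and 1.96 ± 0.96 for iPax3. Of the 13 genes with 2 or more kept probes, 4 had probes of both signs in iPax7 against satellite cells, 7 in iPax3 against satellite cells and 8 in iPax7 against iPax3 cells.

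Top2a, which untangles chromosomes, was at -6.29, -2.68 and -3.80 in iPax7 cells, -2.68, -3.63 and -1.94 in iPax3 cells, and -3.54, -1.30 and -2.71 in satellite cells. Only iPax7 replicate 1 lay below all others. Plk1, a mitotic kinase, was at 4.08, 1.49 and 1.56 in iPax7 cells, 1.69, 1.94 and 0.68 in iPax3 cells, and 1.37, 2.43 and 2.39 in satellite cells, and here iPax7 replicate 1 was the highest. Cdc20, which activates the anaphase-promoting complex, was at -0.60, -1.16 and -1.56 in iPax7 cells, -1.08, -0.36 and -1.24 in iPax3 cells, and 0.11, -0.39 and -0.90 in satellite cells. It had the smallest spread of the list and the narrowest interval, from -2.20 to 0.78 log2 units for iPax7 against satellite cells.

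Ccnb2, a B-type cyclin, was at -0.95, -1.55 and -1.58 in iPax7 cells, 0.99, -0.61 and -2.02 in iPax3 cells, and -0.95, -0.83 and -0.35 in satellite cells. The iPax3 arrays spanned both other groups. Birc5, which serves in the chromosomal passenger complex, was at -0.15, 1.23 and 0.23 in iPax7 cells, 1.23, 2.24 and -0.51 in iPax3 cells, and -1.94, -0.41 and 0.47 in satellite cells. Cdc25c, a phosphatase that activates Cdk1, was at -2.03, -1.78 and -0.91 in iPax7 cells, -0.55, -0.77 and -2.48 in iPax3 cells, and -3.09, -1.86 and -0.61 in satellite cells. Both had overlapping groups.

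The other mitotic genes tested, Ccnb1, Aurka, Bub1b, Cenpa and Mad2l1, were detected on 3 to 7 arrays. Ccnb1, the partner of Cdk1, was by its brighter probe, A_52_P202770, not well above background on any iPax3 array. With iPax3 levels set no lower than the lowest signal well above background, that probe was 3.58-fold higher in iPax7 cells than in iPax3 cells (unadjusted p = 0.0551, limma adjusted p = 1), although the groups overlapped. This is not a strict bound, because iPax7 replicate 1, at -6.46, was not well above background either. The other kept Ccnb1 probe, A_52_P558401, was well above background on 1 of 3 iPax7 arrays and 2 of 3 iPax3 arrays and gave a difference of -0.17 ± 1.99, so the 3.58-fold value holds for the first probe alone. The median difference of the 15 mitotic genes was 0.31 in iPax7 cells against satellite cells, -0.40 in iPax3 cells against satellite cells, and 0.16 between iPax7 and iPax3 cells.

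**Figure D4:**
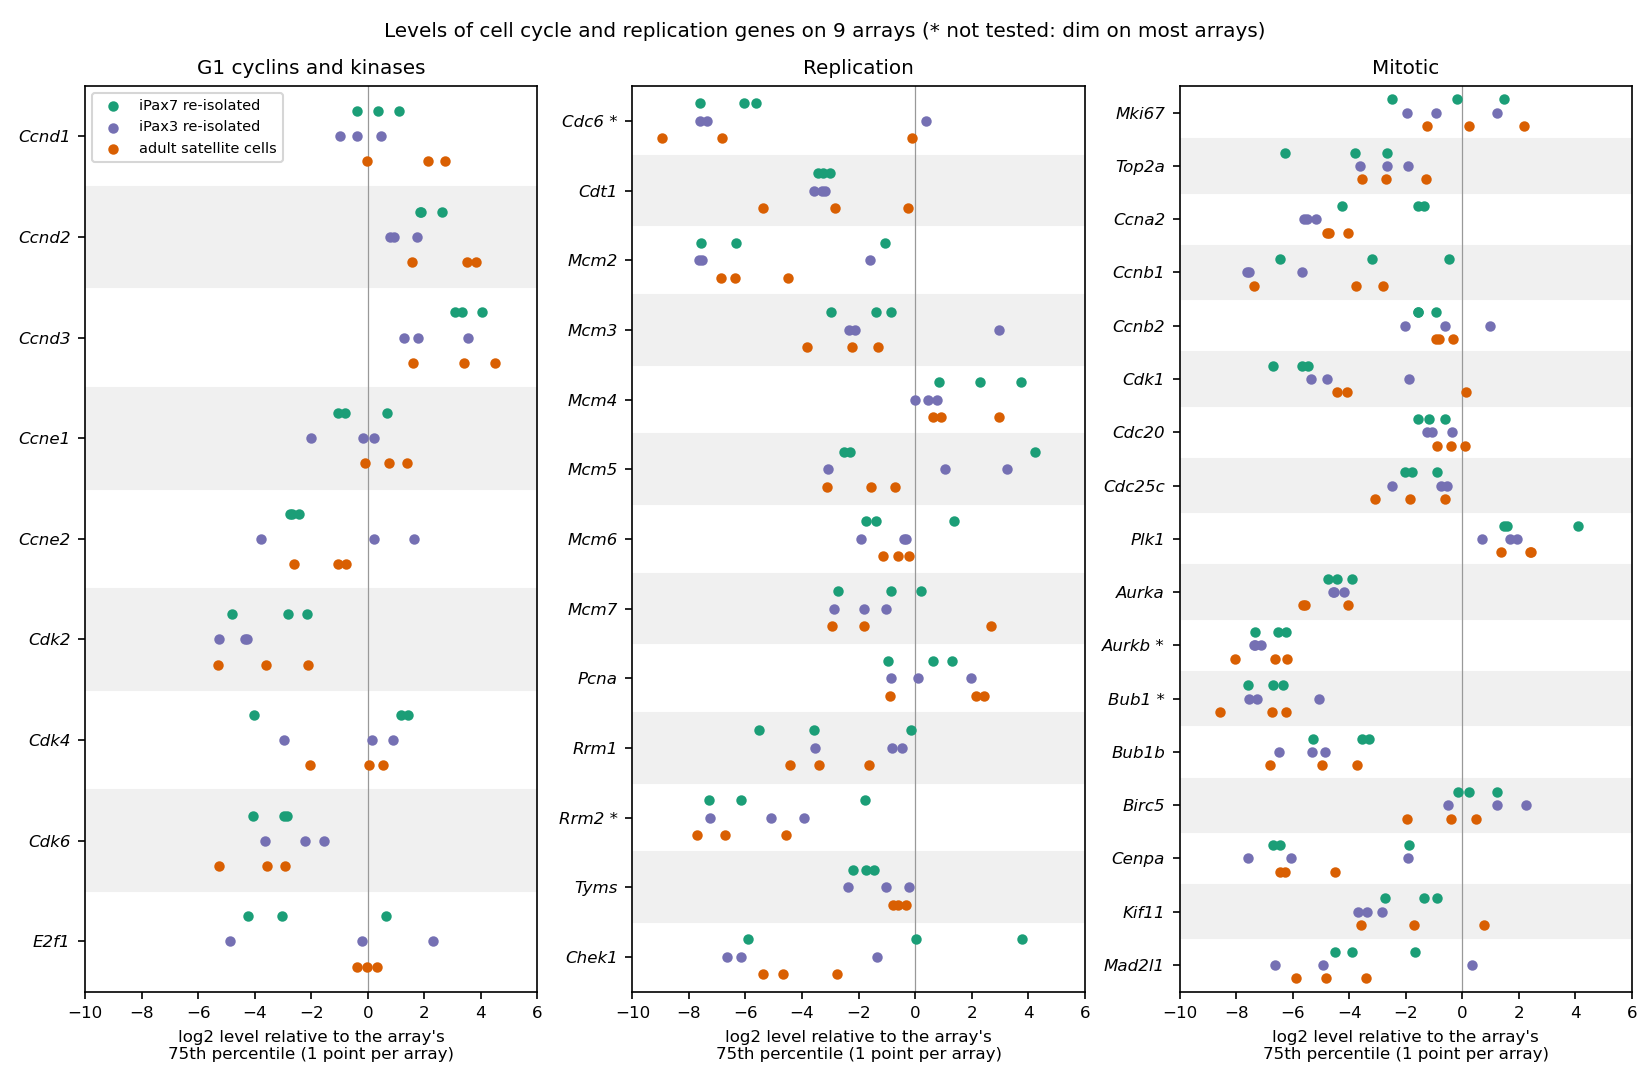
Log2 level relative to the array's 75th percentile (horizontal axis) of the 39 genes, 1 point per array, with iPax7 above iPax3 above satellite in each row and 1 panel per role. Points of the 3 groups are intermingled in most rows; Cdk1 on iPax7 arrays, between -6.68 and -5.47, and Ccna2 on iPax3 arrays, between -5.61 and -5.19, lie below all arrays of the other groups.

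**Figure D5:**
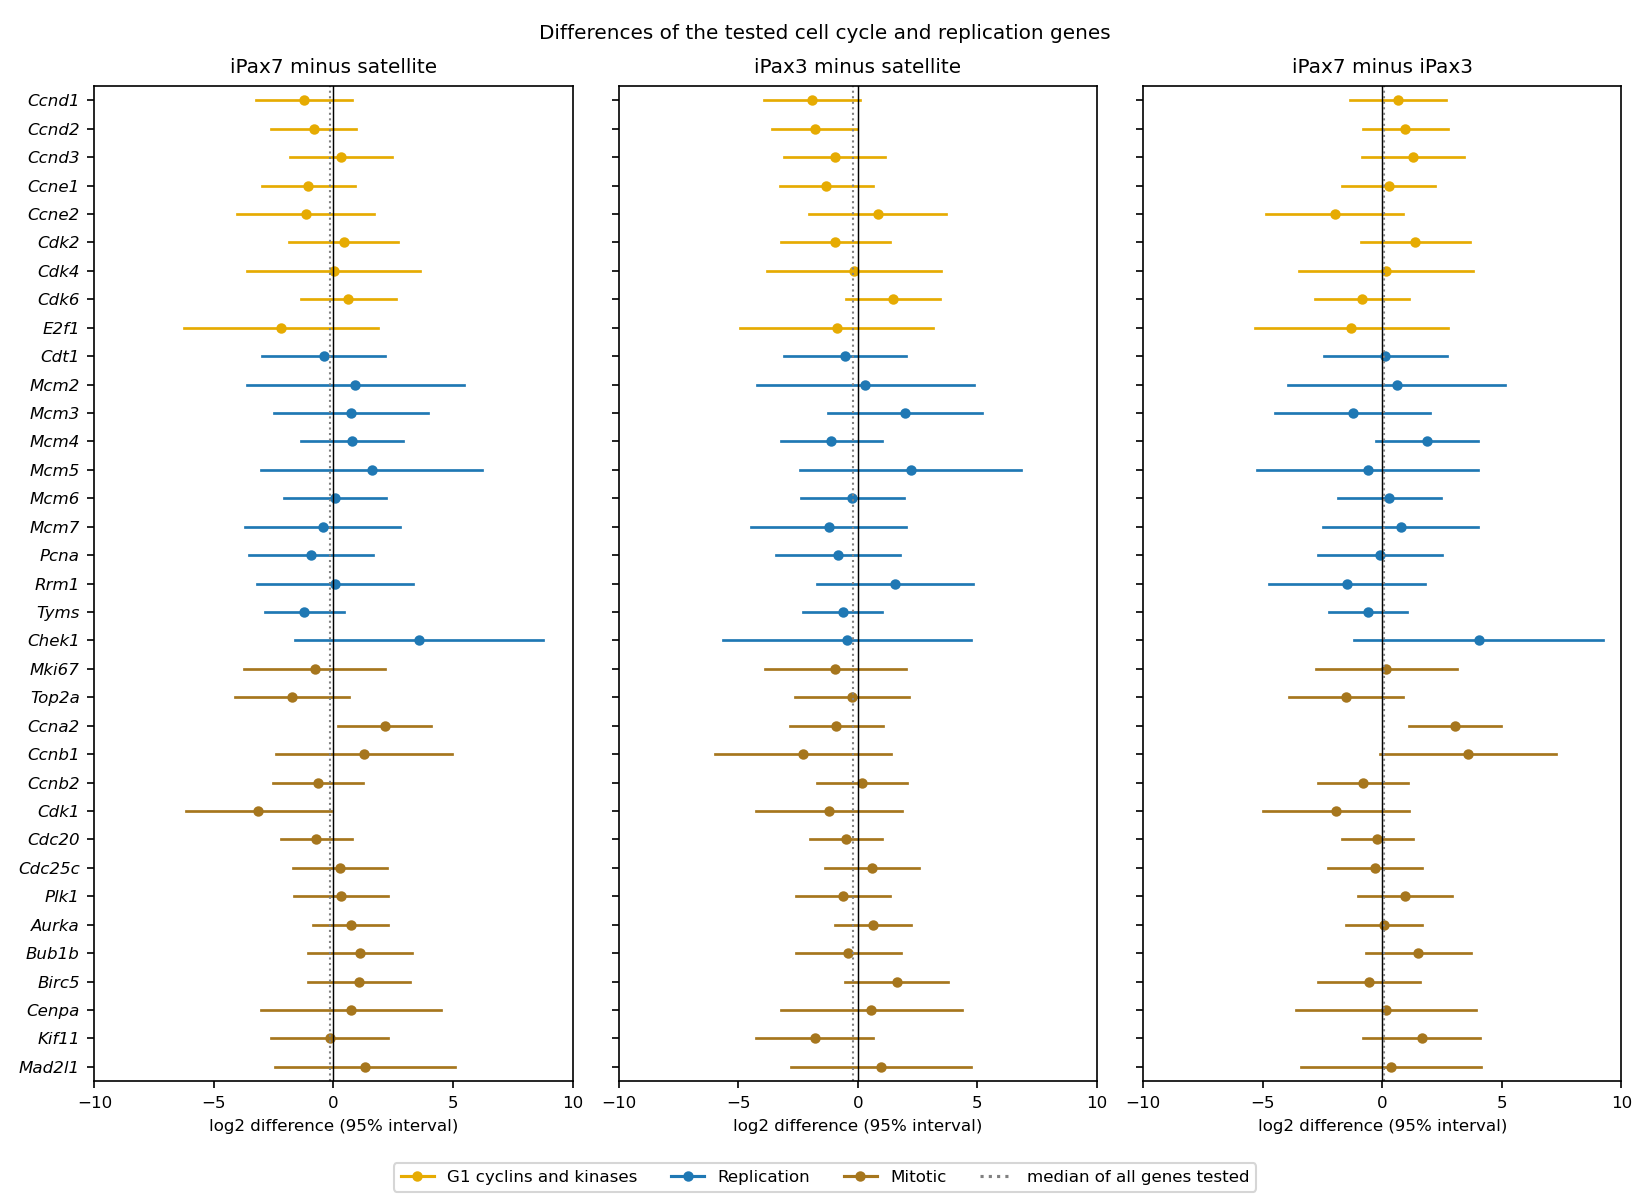
Difference in log2 level (horizontal axis, point) with its 95% interval (line) for the 35 tested genes, in iPax7 minus satellite, iPax3 minus satellite and iPax7 minus iPax3, coloured by role, with a dotted line at the median of all genes tested. All intervals but 4 cross 0; those that do not are Ccna2 and Cdk1 in iPax7 minus satellite, Ccnd2 in iPax3 minus satellite and Ccna2 in iPax7 minus iPax3.

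Other genes of the same pathways were read from 3 lists: 38 tested replication genes, 41 tested mitotic genes and 21 tested G1 and E2F regulators. Pold1, the catalytic subunit of DNA polymerase delta, was the only gene called in any of them. It was at -1.59, -1.05 and -1.84 in iPax7 cells, -1.97, -1.01 and 0.63 in iPax3 cells, and 2.49, 4.51 and 5.40 in satellite cells, with no overlap between re-isolated and satellite arrays. It fell by 5.62 ± 0.96 log2 units in iPax7 cells against satellite cells (limma adjusted p = 0.0474) and fell by 5.27 ± 0.83 in both re-isolated groups together (limma adjusted p = 0.0251). For iPax3 cells alone the difference was -4.91 ± 0.96 (limma adjusted p = 0.0786). The iPax7 call was kept in 6 of 12 other settings and in 1 of 9 fits that left out an array, the one without satellite replicate 1, with an adjusted p between 0.013 and 0.182. The call for both groups together was kept in 8 of 11 settings and 3 of 9 such fits.

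Of the other list members, Cdkn1c, an inhibitor of cyclin-dependent kinases, had the smallest adjusted p of the G1 list: its difference was 3.84 ± 0.72 in iPax7 cells (limma adjusted p = 0.064) and 2.29 ± 0.72 in iPax3 cells (limma adjusted p = 0.253) against satellite cells. The iPax7 difference passed the threshold in 5 of 12 other settings and in 1 of 9 fits that left out an array, the one without satellite replicate 1, with an adjusted p between 0.0306 and 0.237. For both re-isolated groups together it was 3.07 log2 units and passed in 5 of 11 settings and 1 of 9 such fits. Stmn1, a microtubule regulator, had a difference of -5.98 ± 1.42 in iPax7 cells against satellite cells (limma adjusted p = 0.136), and Kif23, a motor of cytokinesis, one of -2.82 ± 0.87 in iPax3 cells against satellite cells (limma adjusted p = 0.26). In iPax7 cells 11 of 38 replication genes, 15 of 41 mitotic genes and 10 of 21 G1 and E2F genes had higher levels than in satellite cells. In iPax3 cells 17, 17 and 9 of these genes did. Of all genes tested, 45.9% were higher in iPax7 cells and 45.3% in iPax3 cells. Medians were -0.80, -0.44 and -0.42 log2 units for these lists in iPax7 cells and -0.28, -0.49 and -0.22 in iPax3 cells, against -0.15 and -0.19 over all genes tested.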

How the data were processed

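Scanner tables of 9 arrays held 45018 spots each, of which 1639 were controls. Per the file headers, Feature Extraction 10.5.1.1 had made the processed intensity from each spot, with background subtraction. The authors' deposited value table of log2 values, for which the submitters' processing notes name limma, served as an alternative only. Its columns tracked the scanner's mean signals, taken as log2, at r of 0.9875 to 0.9993 and had medians of 7.63 to 7.71; how the authors adjusted and selected its spots is unknown.

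From the files, the log2 processed intensity was taken relative to the 75th percentile of each array, and outlier spots (60 to 342 per array) were left out. Spots of a probe were averaged. Probes were kept when well above background (13 standard deviations, per the file headers) on at least 3 arrays, with a value on at least 7, and the probe with the highest mean stood for its gene. Gene names were updated through accessions and older symbols. Limma 3.58.1 in R 4.3.3 was fitted over all 9 arrays, with a mean for each group and no block. The fit was tested on simulated data. A group with no array well above background gives "at least" values, against the lowest spot signal that was well above background on each array. The other group enters by its measured mean, so such a value is a strict bound only where all its arrays were well above background. The number of arrays limits the precision.

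The members and lists were chosen with earlier results of these data known. Values on each array are given for genes of the list whose groups did not overlap, with an unadjusted p under 0.05 in any comparison, or well above background on at least 8 arrays. Other genes of the pathways are named only when called or among the 5 smallest p of their list, and not all of those are named. Alternatives were the background correction, the normalization, the deposited table, the filter on dim probes, the choice of probe, the arrays fitted, and blocks for replicate number, slide and scan day.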

Additional observations from a re-analysis of the deposited data

How the results depend on the processing

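No gene of the list was called in any alternative or with any array left out, over 678 to 748 values a comparison, and the smallest limma adjusted p was 0.107, for Ccnd2 in iPax3 against satellite cells without satellite replicate 1. Estimates had the same sign as the reported one in 94.0% of these values for iPax7 against satellite cells, 94.7% for iPax3 against satellite cells, 91.9% for both together and 92.5% for iPax7 against iPax3 cells. Medians of a role near 0 changed sign in up to 8 of 20 or 22 alternatives, and each stayed within the spread between replicates. Each other kept probe of a gene was added as an alternative after the data were seen and is not in the counts, shares or smallest p above. Of the 13 genes with 2 or more kept probes, 4 to 8 had probes of both signs, depending on the comparison. No kept probe of the list was called, and the smallest limma adjusted p among them was 0.0808, for both re-isolated groups together.

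Counts over all genes, which set the background, moved more; the cause was not tested. For iPax7 against satellite cells, 121 calls became 196 with the deposited table, 76 with probes detected on all 9 arrays, 38 with only the groups compared, 43 with slide and 36 with scan day as a random block. For iPax3 against satellite cells, 98 calls became 186 with the deposited table, 56 with only the groups compared, 14 with slide and 27 with scan day as a random block. For both together, 236 calls became 47 with slide and 43 with scan day as a random block. Between iPax7 and iPax3 cells, 0 calls became 1 with quantile normalization, 1 with the mean of the probes of a gene and 1 with slide as a random block. Normexp background correction moved the share of calls that were higher to 72.5% for iPax7, 68.5% for iPax3 and 62.5% for both, against 81.8%, 83.7% and 77.1%.

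Leaving out each array in turn gave 35 to 487 calls for iPax7, 19 to 451 for iPax3 and 75 to 689 for both against satellite cells, each highest without satellite replicate 1, and 0 between the lines. With a replicate block the counts were 55, 37, 115 and 0. Same-numbered arrays had correlations of deviations between -0.129 and 0.062, and other pairs between -0.094 and 0.177. Deviations from a mean of 3 arrays sum to 0, so this check has little power. Whether the numbers mark shared experiments is not labelled and stays unknown. Dim probes limit Cdc6, Rrm2, Aurkb and Bub1, which were tested only without the filter on dim probes.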
